A study of Mus musculus with 3 samples.

Results

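The 44 genes described here belong to the 2 fuel pathways of the heart, fatty acid oxidation and glycolysis. The genes reach from uptake of the fuel to beta-oxidation, electron transfer and pyruvate dehydrogenase, and include Ucp3 and transcriptional regulators. They were taken from a list of gene symbols, which was drawn up with earlier results of these data known. All 44 were found among the 55487 gene identifiers of the deposited table, 39 by the symbol column and 5 (Cpt1b, Etfb, Esrra, Pfkm and Pkm) by gene identifier, because the table joins them with overlapping genes. The groups were hearts of homozygote, heterozygote and wild-type mice at 12 weeks of age. Mutant animals carried I538T, a point mutation of Rbm20 (a splicing factor of striated muscle). It was placed in the endogenous gene with CRISPR/Cas9 in C57BL/6 zygotes. Founders were crossed with C57BL/6J mice, so later generations inherited the mutation and carry it in every cell. Each genotype was measured in 1 RNA-seq library of heart total RNA. No difference could therefore be tested against the spread between mice, and differences are described by their size and by exact 95% intervals, which cover counting error only. Sex and the number of mice behind a library are not given in the sources used here.

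The adult heart draws most of its energy from fatty acids. These are taken up, bound and activated in the cytosol, carried into the mitochondrion by the carnitine shuttle and shortened by beta-oxidation, whose electrons enter the respiratory chain through the electron transfer flavoproteins. Glucose enters by facilitated transport and is split by the glycolytic enzymes to pyruvate, which is oxidized by pyruvate dehydrogenase or exchanged with lactate. The nuclear receptor PPARα, the estrogen-related receptors and the coactivators PGC-1α and PGC-1β switch on genes of fatty acid use, and the pyruvate dehydrogenase kinases hold back glucose oxidation.

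The level of a gene is given as inclusion reads (reads that overlap an exonic part of that gene) per 1000000 inclusion reads of the library, CPM. Reads that span more than one part add to every part they touch. Inclusion reads numbered 157990953 in the homozygote, 157178099 in the heterozygote and 149633524 in the wild-type library. Cardiomyocyte markers such as Myl2 and Tnnt2 were abundant in each library, and 6 adipocyte markers together had 1.3 CPM in the homozygote, 1.4 CPM in the heterozygote and 1.0 CPM in the wild-type. Globin genes and Alas2 took 10.7% of the homozygote reads, 3.20% of the heterozygote reads and 8.61% of the wild-type reads. Small-intestine markers (9 of 10 found) had 0.6 CPM in the homozygote and 0.6 CPM in the heterozygote, against 23.8 CPM in the wild-type. The 4 immune markers that passed 1 CPM were all lower in the homozygote library than in the wild-type library, 3 of them by more than 1.5-fold. Of all 13936 genes with at least 1 CPM on average, 9198 were lower and 4738 higher in this comparison. In bulk heart RNA, fewer cells of a type and less RNA per cell cannot be told apart.

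One gene of the 44, Ucp3, differed by more than 1.5-fold from the wild-type. It was lower by about the same factor in both mutant libraries. All 44 genes passed the minimum of 1 CPM on average. Past 1.5-fold on the log2(CPM + 1) scale was 1 of 44 in the homozygote over the wild-type, where 6.64% of the 13936 genes tested passed in either direction and 5.35% were lower. It was 1 of 44 in the heterozygote over the wild-type, where 4.25% passed in either direction and 3.0% were lower. Between homozygote and heterozygote none of the 44 passed, against 4.54% of all genes in either direction and 3.09% lower. Both mutant comparisons use the same wild-type library, so their shared result is not repeated evidence.

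**Figure D1:**
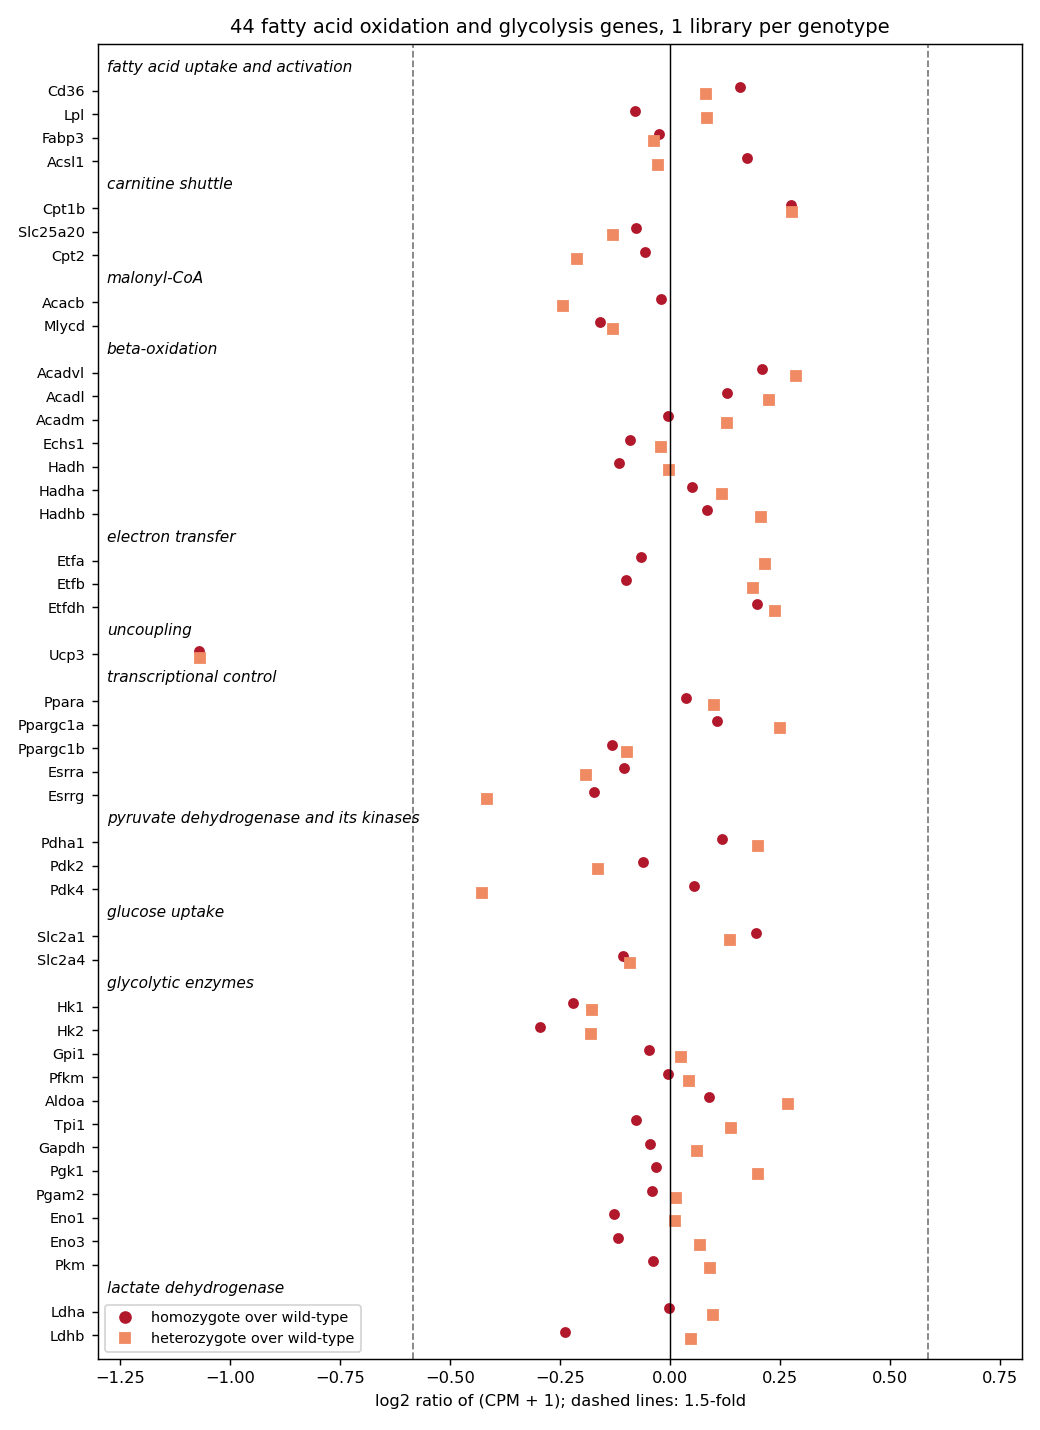
Log2 ratios of (CPM + 1) for the 44 genes, grouped by role, with the homozygote over the wild-type as circles and the heterozygote over the wild-type as squares, each from 1 library per genotype. Ucp3 lies at -1.07 in both comparisons and every other gene lies between the dashed lines that mark 1.5-fold.

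The small ratios of the other genes depend on how the libraries are scaled. With CPM, the median ratio of all genes tested was -0.08 in log2 for the homozygote over the wild-type, 0.01 for the heterozygote over the wild-type and -0.10 for the homozygote over the heterozygote. The medians of the 44 genes were -0.04, 0.05 and -0.07 in the same order. Median-of-ratios size factors moved the all-gene median to 0.04 for the homozygote over the wild-type and turned the sign of 23 of the 44 ratios, none of them larger than 0.13 in size. The sizes themselves were small. The median size of the ratio was 0.10 for the homozygote over the wild-type and 0.13 for the heterozygote over the wild-type over the 44 genes, against 0.16 and 0.15 over all genes tested. Over the 1103 genes with at least 100 CPM, a level that many of the 44 reach, the median sizes were 0.09 and 0.13.

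Ucp3 encodes uncoupling protein 3, a carrier of the inner mitochondrial membrane in muscle and heart whose RNA follows fatty acid supply. The gene spans chr7:100472990-100486432 of GRCm38 (plus strand). It had 16.4 CPM in the homozygote library and 16.5 CPM in the heterozygote, against 35.6 CPM in the wild-type, from 2595, 2586 and 5325 inclusion reads. The 2 mutant libraries were alike and the wild-type stood apart. The fold was 0.462 (0.440 to 0.484) for the homozygote over the wild-type and 0.462 (0.441 to 0.485) for the heterozygote over the wild-type. Between homozygote and heterozygote it was 0.998 (0.945 to 1.05). The difference ran along the whole transcript. All 14 parts with at least 20 inclusion reads in both libraries were lower in the homozygote library, with log2 ratios to the wild-type of -1.60 to -0.89, and all 11 such parts were lower in the heterozygote, at -1.46 to -0.89. Across the 6 alternative settings the log2 ratio stayed between -1.11 and -0.94 for the homozygote and between -1.15 and -1.05 for the heterozygote. The wild-type library was also the one with small-intestine markers, and their part in this difference was not tested. Skeletal muscle markers (7 genes) had 5.7 CPM in the homozygote, 6.8 CPM in the heterozygote and 6.3 CPM in the wild-type. Ucp1, which defines brown fat, had 0.04 CPM in the homozygote and no read in the heterozygote or the wild-type. The 4 brown adipocyte markers, Ucp1 among them, summed to 1175, 1265 and 1134 CPM in homozygote, heterozygote and wild-type. The 2 of them that passed 1 CPM, which did not include Ucp1, were higher in both mutant libraries than in the wild-type. The sum thus rested on genes other than Ucp1, and whether it reflects brown fat was not tested.

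**Figure D2:**
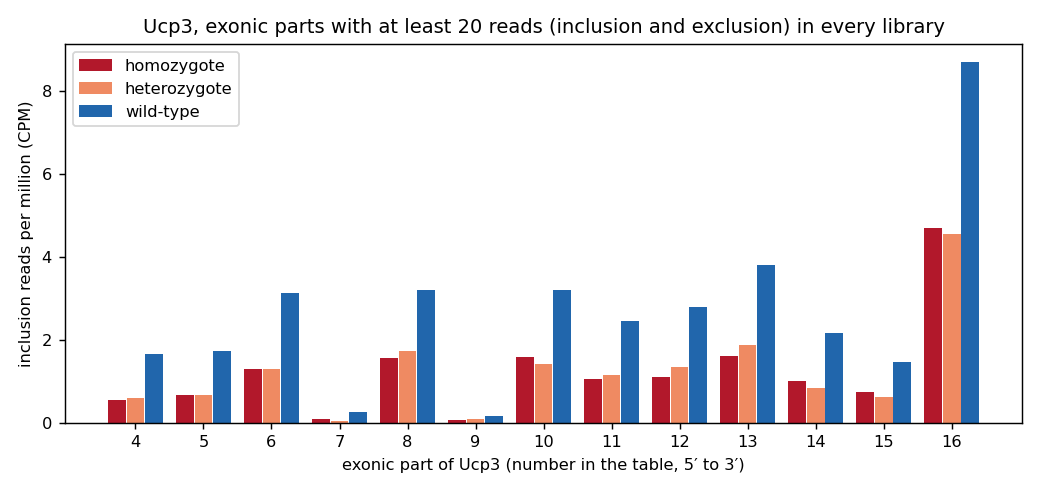
CPM of the exonic parts of Ucp3 in transcript order, with bars for the homozygote, the heterozygote and the wild-type library. Drawn are the parts with at least 20 inclusion plus exclusion reads in every library, and the wild-type bar is the tallest in each of them.

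Because Ucp3 is a target of nuclear receptors, the 250 bases before its start are shown, with each copy of the half-site AGGTCA (on either strand) in capitals. The stretch is chr7:100472741-100472990 of GRCm38.p6, plus strand, from RefSeq.
Ucp3 upstream: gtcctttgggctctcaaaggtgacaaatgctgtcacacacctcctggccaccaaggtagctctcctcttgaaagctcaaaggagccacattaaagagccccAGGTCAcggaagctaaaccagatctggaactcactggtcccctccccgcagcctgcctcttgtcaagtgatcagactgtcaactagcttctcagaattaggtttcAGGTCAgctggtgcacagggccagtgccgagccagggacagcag
AGGTCA or its reverse complement was found in 14 of the 55 RefSeq promoters (250 bases before to 50 after the start) of the 40 genes with an entry, 25.5%, against 16.3% of all 32851 promoters. The 13 genes with a match were Acacb, Acadm, Acadvl, Aldoa, Cd36, Echs1, Eno1, Eno3, Ldhb, Pfkm, Pkm, Tpi1 and Ucp3. The longer letters TCAAGGTCA, preferred by estrogen-related receptors, were in 0 of the 55 and in 0.423% of all promoters, and the direct repeat bound by PPARα (AGGTCA, any 1 base, AGGTCA) was in 0 of the 55 and in 0.0396% of all. Apart from Ucp3, the genes with a match stayed within 1.5-fold. A match of letters does not show a binding site.

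Genes of fatty acid uptake and activation were at nearly the same level in the 3 libraries. Fabp3, the heart fatty acid-binding protein, had 5379 CPM in the homozygote, 5335 CPM in the heterozygote and 5473 CPM in the wild-type. It also had the highest level per length of the 44 genes, with 4710, 4671 and 4778 CPM per 1000 read positions in the same libraries. Cd36, a fatty acid translocase, had 1042 CPM in the homozygote, 987.1 CPM in the heterozygote and 933.7 CPM in the wild-type. Lpl, which frees fatty acids from circulating triglyceride, and Acsl1, the acyl-CoA synthetase, had log2 ratios between -0.08 and 0.17 against the wild-type.

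Cpt1b, the muscle carnitine palmitoyltransferase and the entry step of the carnitine shuttle, was higher in both mutant libraries, below 1.5-fold. Its own 4 parts had 12.4 CPM in the homozygote and 12.4 CPM in the heterozygote, against 10.1 CPM in the wild-type. Most of its exons are shared in the annotation with a read-through model that joins it to Chkb. Over the 26 parts that hold Cpt1b exons and no Chkb exon it had 305.1 CPM in the homozygote and 307.3 CPM in the heterozygote, against 250.9 CPM in the wild-type. The fold was 1.22 (1.20 to 1.23) for the homozygote and 1.22 (1.21 to 1.24) for the heterozygote over the wild-type, and 24 of 24 parts with enough reads were higher in each. Slc25a20, the carrier that exchanges acylcarnitine, and Cpt2, the inner-membrane transferase, did not share this. Cpt2 had 158.5 CPM in the homozygote and 142.3 CPM in the heterozygote, against 164.9 CPM in the wild-type. Slc25a20, the highest of the shuttle per length, had 188.5 CPM in the homozygote, 181.7 CPM in the heterozygote and 198.9 CPM in the wild-type. Of the pair that makes and removes malonyl-CoA, the inhibitor of the shuttle, Acacb had 77.0 CPM in the homozygote, 65.8 CPM in the heterozygote and 78.1 CPM in the wild-type. Mlycd, the decarboxylase, had 103.7, 105.9 and 116.0 CPM in these libraries.

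The 7 genes of beta-oxidation lay between -0.12 and 0.21 in log2 for the homozygote over the wild-type and between -0.02 and 0.29 for the heterozygote over the wild-type. Acadvl, the dehydrogenase of very long chains, had the highest ratios, with 1517 CPM in the homozygote and 1600 CPM in the heterozygote, against 1313 CPM in the wild-type. All 30 of its parts with enough reads were higher in each mutant library, although 17 of its 36 parts overlap an exon on the opposite strand, whose reads cannot be told apart here. Acadl, for long chains, had 995.6 CPM in the homozygote and 1065 CPM in the heterozygote, against 911.1 CPM in the wild-type, and 13 of 13 parts were higher in each. Acadm, for medium chains, had 1380, 1516 and 1385 CPM in homozygote, heterozygote and wild-type. The trifunctional protein subunits Hadha and Hadhb, the hydratase Echs1 and the dehydrogenase Hadh stayed within 0.21 of 0. Of the electron transfer genes, Etfa and Etfb were highest in the heterozygote under every scaling. In CPM, the sum of 8 cardiomyocyte markers was also highest in the heterozygote (73621, 78506 and 68998 CPM in homozygote, heterozygote and wild-type). Of these 8 markers, 3 were higher in the homozygote than in the heterozygote and 5 were lower. Smooth muscle markers also summed highest in the heterozygote (239, 304 and 201 CPM). These marker sums were not compared under other scalings, and the part of these cells was not tested. Etfa had 915.1 CPM in the homozygote and 1114 CPM in the heterozygote, against 958.9 CPM in the wild-type. The 10 own parts of Etfb had 315.9, 385.9 and 338.9 CPM in the same libraries. Another 12 parts over Etfb exons are shared with an overlapping gene. With these included, Etfb had 1448 CPM in the homozygote, 1745 CPM in the heterozygote and 1530 CPM in the wild-type. Etfdh, the oxidoreductase that passes the electrons to ubiquinone, had 429.6 CPM in the homozygote and 442.3 CPM in the heterozygote, against 374.7 CPM in the wild-type. Its log2 ratio of the homozygote over the heterozygote, -0.04, became 0.08 with size factors and 0.07 with globin-free totals. With globin reads taken out of the library totals, ratios of the heterozygote over the wild-type were lower by up to 0.08. Acadvl then kept 0.20 in the heterozygote over the wild-type and 0.24 in the homozygote over the wild-type.

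The transcriptional regulators were low and did not pass 1.5-fold. Ppargc1a, which encodes PGC-1α, had 45.6 CPM in the homozygote and 50.5 CPM in the heterozygote, against 42.3 CPM in the wild-type. Ppara had 14.2 CPM in the homozygote, 14.9 CPM in the heterozygote and 13.9 CPM in the wild-type. Esrra, the highest of the 5 per length, had 61.3, 57.6 and 66.0 CPM in these libraries. Esrrg was the lowest in CPM, with 8.3 CPM in the homozygote, 6.8 CPM in the heterozygote and 9.4 CPM in the wild-type, and its fold of the heterozygote over the wild-type was 0.723 (0.667 to 0.783). Ppargc1b had 13.1, 13.5 and 14.5 CPM.

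Pdk4, the pyruvate dehydrogenase kinase that is raised by fasting and fatty acids, was lowest in the heterozygote. It had 115.3 CPM in the homozygote, 82.3 CPM in the heterozygote and 111.0 CPM in the wild-type. All 14 parts with enough reads were lower in the heterozygote than in the wild-type and all 14 were higher in the homozygote than in the heterozygote library. The fold was 0.741 (0.724 to 0.759) for the heterozygote over the wild-type and 1.40 (1.37 to 1.43) for the homozygote over the heterozygote. The log2 ratio of the homozygote over the heterozygote was 0.48, below 1.5-fold, and became 0.60, past it, both with size factors and with globin-free totals. Pdk2, the other kinase, had 263.2 CPM in the homozygote, 244.8 CPM in the heterozygote and 274.6 CPM in the wild-type. Pdha1, the catalytic subunit they act on, had 460.4, 487.1 and 424.3 CPM. Blood genes were also lowest in the heterozygote, with 107317, 31993 and 86119 CPM over 5 genes in homozygote, heterozygote and wild-type, and their part in the Pdk4 difference was not tested.

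Glucose uptake and glycolysis showed no gene past 1.5-fold. Slc2a4, the insulin-responsive transporter, had 201.5 CPM in the homozygote, 204.0 CPM in the heterozygote and 217.3 CPM in the wild-type. Slc2a1, the basal transporter, had 9.7, 9.3 and 8.4 CPM. Per length, Slc2a4 exceeded Slc2a1 by 24.3-fold in the homozygote, 25.8-fold in the heterozygote and 31.2-fold in the wild-type. The hexokinases, which trap glucose as its phosphate, were the glycolytic enzymes farthest below the wild-type. Hk2 had 52.2 CPM in the homozygote and 56.6 CPM in the heterozygote, against 64.2 CPM in the wild-type, a fold of 0.812 (0.789 to 0.837) for the homozygote. Hk1 had 50.5 CPM in the homozygote and 52.2 CPM in the heterozygote, against 59.1 CPM in the wild-type, a fold of 0.855 (0.829 to 0.881). Both signs held under all 6 alternative settings. Gapdh, a common reference gene to which the study's quantitative PCR of Rbm20 was scaled, had 5320 CPM in the homozygote, 5730 CPM in the heterozygote and 5494 CPM in the wild-type. Its ratios were -0.05 and 0.06 in log2 for homozygote and heterozygote over the wild-type, and both turned sign under other scalings. Aldoa, the muscle aldolase, had 2878 CPM in the homozygote and 3260 CPM in the heterozygote, against 2708 CPM in the wild-type. The other 8 glycolytic enzymes (Gpi1, Pfkm, Tpi1, Pgk1, Pgam2, Eno1, Eno3 and Pkm) had log2 ratios between -0.13 and 0.20 against the wild-type. Gapdh, Pgk1, Ldha, Tpi1 and Aldoa have processed pseudogenes in the mouse genome that may take or lend reads.

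Of the lactate dehydrogenase genes, Ldhb, the heart form, was lower in the homozygote. It had 1665 CPM in the homozygote and 2029 CPM in the heterozygote, against 1965 CPM in the wild-type, a fold of 0.847 (0.843 to 0.852) for the homozygote over the wild-type. Ldha, the muscle form, had 938.9 CPM in the homozygote, 1006 CPM in the heterozygote and 940.5 CPM in the wild-type. Per length the ratio of Ldhb to Ldha was 2.66 in the homozygote, 3.05 in the heterozygote and 3.16 in the wild-type. Eno3, the muscle enolase, exceeded Eno1 per length by 10.02-fold, 9.70-fold and 9.89-fold in the same libraries.

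Splicing was read as PSI, the percentage spliced in of an exonic part. PSI sets inclusion reads against exclusion reads (whose junction skips the part) after each is divided by the positions a read can take. For the first exon of a transcript, PSI cannot tell exon skipping from the use of another transcript start. Pkm is the textbook case of a splicing switch in this pathway. Its 2 mutually exclusive exons give pyruvate kinase M1, the form of adult muscle, or M2, the form of proliferating cells. Both are 167 bases long and are exon 9 of 11 in transcripts Pkm-202 (M1) and Pkm-201 (M2). The M1 exon lies at chr9:59675029-59675195 and the M2 exon at chr9:59675568-59675734 of GRCm38, plus strand. They are shown because the reads are told apart by their differences. Capitals mark the 64 positions at which the exons differ, and 61.7% of positions are the same.
Pkm M1 exon: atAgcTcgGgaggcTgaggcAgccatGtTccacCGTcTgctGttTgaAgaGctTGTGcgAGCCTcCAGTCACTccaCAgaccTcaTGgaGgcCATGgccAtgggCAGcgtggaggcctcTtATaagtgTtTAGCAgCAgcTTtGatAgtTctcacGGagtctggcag
Pkm M2 exon: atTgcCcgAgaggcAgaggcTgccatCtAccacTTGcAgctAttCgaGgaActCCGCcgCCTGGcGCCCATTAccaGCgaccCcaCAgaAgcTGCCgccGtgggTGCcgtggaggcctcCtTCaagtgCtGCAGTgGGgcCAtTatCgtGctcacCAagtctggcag

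The M1 exon prevailed in every library. Its PSI was 87.5% (86.5 to 88.5) in the homozygote and 87.7% (86.7 to 88.6) in the heterozygote, against 85.3% (84.3 to 86.4) in the wild-type. The M2 exon had a PSI of 14.5% (13.8 to 15.3) in the homozygote, 14.4% (13.7 to 15.1) in the heterozygote and 14.96% (14.2 to 15.8) in the wild-type. M1 was thus 2.16 points (0.72 to 3.60) higher in the homozygote and 2.32 points (0.90 to 3.74) higher in the heterozygote than in the wild-type, while M2 differed by -0.41 points (-1.50 to 0.67) and -0.58 points (-1.65 to 0.50). Of the reads on either exon, M1 took 84.9% (84.1 to 85.6) in the homozygote and 85.3% (84.6 to 86.0) in the heterozygote, against 84.6% (83.9 to 85.3) in the wild-type. These intervals overlap. The annotation has a further gene model over both exons, Gm49759, whose reads cannot be told apart from those of Pkm here.

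**Figure D3:**
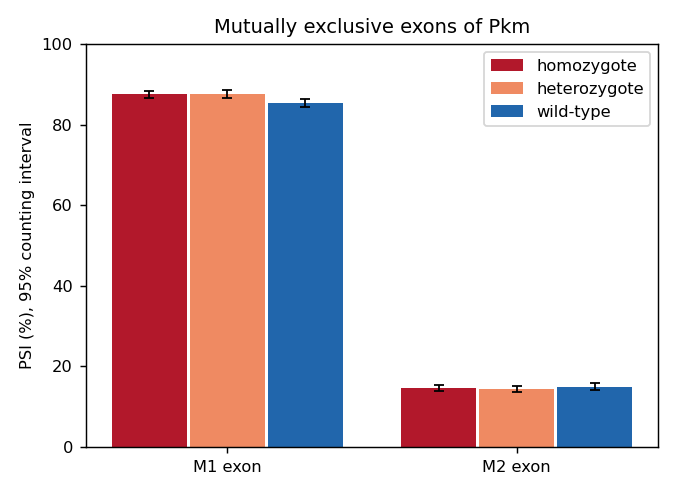
PSI in percent of the M1 and M2 exons of Pkm in the homozygote, heterozygote and wild-type library, with exact 95% counting intervals. M1 stands between 85.3% and 87.7% and M2 between 14.4% and 14.96%.

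Large PSI differences were rare among the other exons. Of 1022 parts of the 44 genes with at least 20 reads in both libraries, 2 differed by at least 20 points between homozygote and wild-type, against 1.51% of all 202841 parts. Between heterozygote and wild-type it was 0 of 1013, against 1.58% of all parts, and between homozygote and heterozygote 3 of 1015, against 1.53%. Each of the 3 parts concerned had at most 26 exclusion reads in a library. The first exon of Ppara-202, a 5′ UTR exon of 321 bases (chr15:85735776-85736096), had a PSI of 86.3% (70.4 to 95.9) in the homozygote and 65.4% (53.0 to 77.0) in the heterozygote, against 52.1% (41.0 to 63.9) in the wild-type. It rested on 4, 17 and 25 exclusion reads. The difference of the homozygote from the wild-type was 34.2 points (14.4 to 48.9). The first exon of Hk1-202 (chr10:62340013-62340542), which holds the start of the coding sequence, had a PSI of 78.7% (66.3 to 88.7) in the homozygote, against 100% (87.7 to 100) in the heterozygote and 100% (87.7 to 100) in the wild-type. Its 10 exclusion reads were all in the homozygote. Both calls against the wild-type depend on the length normalization of PSI. By the plain share of inclusion reads the homozygote differed from the wild-type by 16.5 points in Ppara and by -5.03 points in Hk1, neither past 20 points. A part of Esrrg (chr1:187793413-187793742, the last exon of a short transcript) had 17.8% in the homozygote, 42.8% in the heterozygote and 32.2% in the wild-type, from 33 to 70 reads per library.

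At 10 points, 24 parts differed between homozygote and wild-type (2.35% of 1022, against 4.23% of all parts). Between heterozygote and wild-type it was also 24 (2.37% of 1013, against 4.55%), and between homozygote and heterozygote 8 (0.788% of 1015, against 4.38%). Of the 24 parts between homozygote and wild-type, 14 lie in a run in a single gene. The runs given here and below hold only parts whose PSI differed by at least 8 points between any 2 libraries. They were picked for that difference, so their medians and their order of libraries describe the picked parts alone. Gpi1 encodes glucose-6-phosphate isomerase, the second step of glycolysis. In its coding exons 4 to 14 of 18 (chr7:34205568-34227202, minus strand), 16 neighbouring parts had a median PSI of 81.2% in the homozygote and 86.5% in the heterozygote, against 96.5% in the wild-type. The median number of exclusion reads per part was 316 in the homozygote and 212 in the heterozygote, against 45.5 in the wild-type. The same numbers returned in part after part, so the 16 values share their skipping reads and are not 16 separate observations. Inclusion reads over the run were between 1298 and 2866 in each part, and the level of Gpi1 was 401.4 CPM in the homozygote, 422.6 CPM in the heterozygote and 415.3 CPM in the wild-type.

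Other enzymes had such runs, picked by the same rule, with another order of the libraries. Of their parts, 2 of 9 in Pfkm, 6 of 6 in Hadhb and 0 of 2 in Eno3 reached 10 points. Parts within each run again had similar numbers of exclusion reads and are not separate observations. In Pfkm, the muscle phosphofructokinase, 9 parts in coding exons 12 to 20 of 23 (chr15:98125026-98129833) had a median PSI of 98.9% in the homozygote and 95.4% in the heterozygote, against 89.8% in the wild-type. The wild-type was the library with the most skipping, at 158 to 192 exclusion reads, against 17 to 21 in the homozygote and 68 to 119 in the heterozygote. In Hadhb, 6 parts in coding exons 9 to 12 of 16 (chr5:30174954-30178844) had a median PSI of 85.8% in the homozygote and 77.8% in the heterozygote, against 90.9% in the wild-type, and the heterozygote was lowest in each of them. In Eno3, the coding exons 4 and 5 of 12 had 1250 exclusion reads in the heterozygote, against 0 in the homozygote and 2 in the wild-type, and the PSI was 100% in the homozygote and 91.1% in the heterozygote, against 99.98% in the wild-type. The level of none of these 4 genes passed 1.5-fold.

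**Figure D4:**
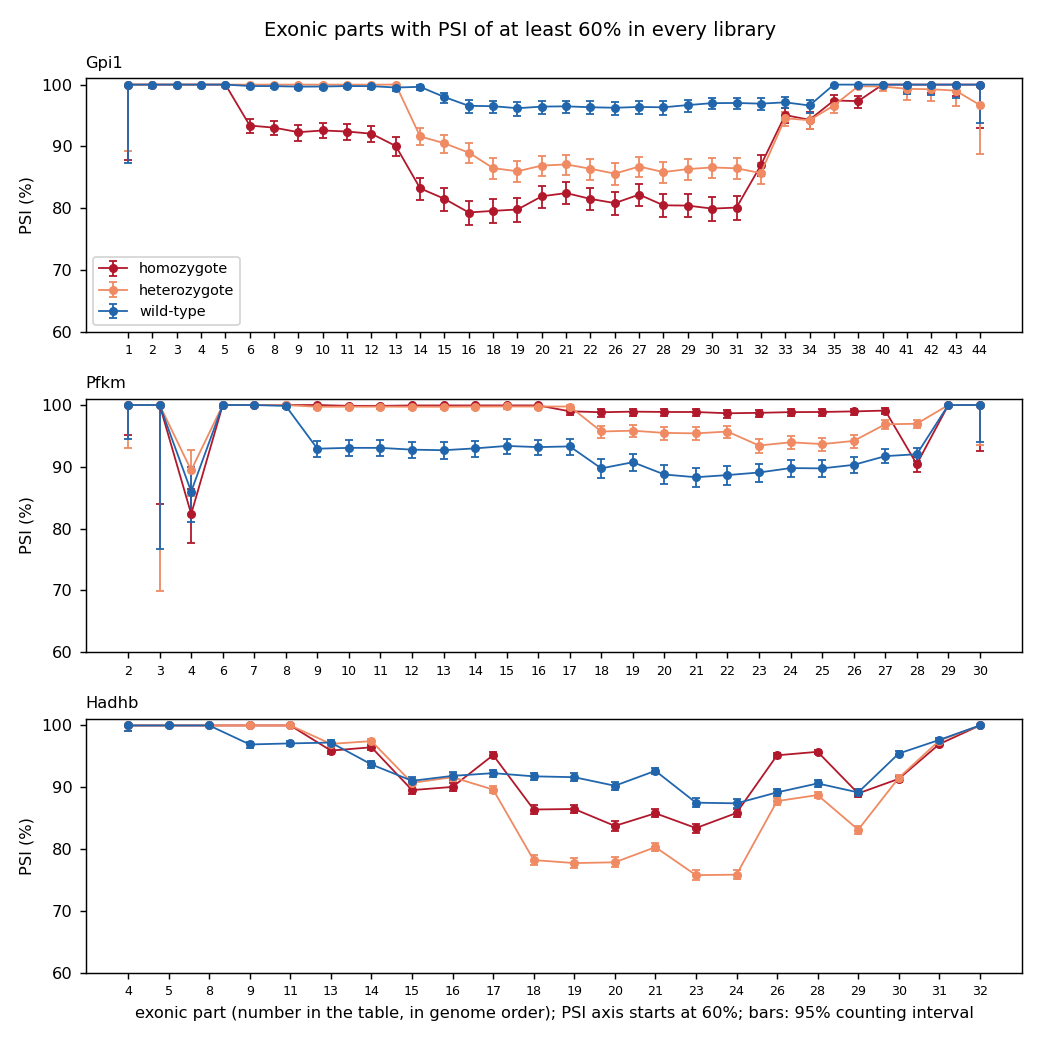
PSI in percent along the exonic parts of Gpi1, Pfkm and Hadhb in genome order, for parts with a PSI of at least 60% in every library, with exact 95% counting intervals. The runs described above hold only parts picked for a difference of at least 8 points between libraries. Among these picked parts, PSI is lowest in the homozygote in 15 of 16 parts of Gpi1 (in the heterozygote in the other). It is lowest in the wild-type in 9 of 9 parts of Pfkm and in the heterozygote in 6 of 6 parts of Hadhb.

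Parts with a PSI between 5% and 95% and at least 50 reads in every library numbered 49, in 15 genes. Their median difference was -0.93 points for the homozygote and -0.22 points for the heterozygote against the wild-type, and 37 and 35 of them differed by less than 5 points. At least 10 points apart were 2 in the homozygote and 11 in the heterozygote, of which 6 belong to the Hadhb run and 3 to Acsl1. The share of all parts under the same limits is not given here, so these counts do not set the genes apart. The first exon of Acsl1-203 (chr8:46491051-46491161) had a PSI of 57.5% in the homozygote, 66.7% in the heterozygote and 52.9% in the wild-type. A part of Eno1 that is exon 4 of 7 in a shorter coding transcript (chr4:150241767-150241825) had a PSI of 61.1% in the homozygote, 60.8% in the heterozygote and 60.5% in the wild-type. The first exon of Cd36-202, a 5′ UTR part (chr5:17849657-17849729) had 44.98%, 43.4% and 47.2%. Acsl1 has neighbouring alternative exons of 78 bases each. The upstream one (chr8:46521268-46521345) was included at 98.9% in the homozygote and 93.7% in the heterozygote, against 93.9% in the wild-type, and the downstream one (chr8:46521410-46521487) had 6.01%, 5.52% and 4.75%.

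Among 134 further genes of these pathways, 133 passed 1 CPM on average, and 0 were higher and 7 were lower past 1.5-fold in the homozygote over the wild-type. In the heterozygote over the wild-type 2 were higher (Pfkfb2 and Nr4a1) and 4 lower (Angptl4, Bpgm, Phkg1 and Txnip). These shares, 5.26% and 4.51% in either direction, are near those of all genes tested (6.64% and 4.25%), so the genes below are given as values and do not set these pathways apart. Phkg1, the catalytic subunit of muscle phosphorylase kinase, was lower in both, with 6.98 CPM in the homozygote and 9.82 CPM in the heterozygote, against 17.7 CPM in the wild-type. Bdh1, which oxidizes the ketone body β-hydroxybutyrate, had 41.3 CPM in the homozygote and 56.9 CPM in the heterozygote, against 68.1 CPM in the wild-type, and passed 1.5-fold in the homozygote. Ehhadh, of peroxisomal beta-oxidation, had 3.72 CPM in the homozygote and 5.38 CPM in the heterozygote, against 6.69 CPM in the wild-type. Acsl4, Pfkfb4 and Slc16a7 were lower past 1.5-fold in the homozygote at levels under 7 CPM.

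Angptl4, a secreted inhibitor of lipoprotein lipase, had 20.3 CPM in the homozygote and 5.69 CPM in the heterozygote, against 21.9 CPM in the wild-type. Txnip, a brake on glucose uptake, had 282.4 CPM in the homozygote and 165.5 CPM in the heterozygote, against 366.0 CPM in the wild-type. Like Pdk4, both were lowest in the heterozygote. Pfkfb2, whose product activates phosphofructokinase, had 11.5 CPM in the homozygote and 15.1 CPM in the heterozygote, against 9.63 CPM in the wild-type. Nr4a1, an orphan nuclear receptor, had 9.29 CPM in the homozygote and 11.3 CPM in the heterozygote, against 5.93 CPM in the wild-type.

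**Figure D5:**
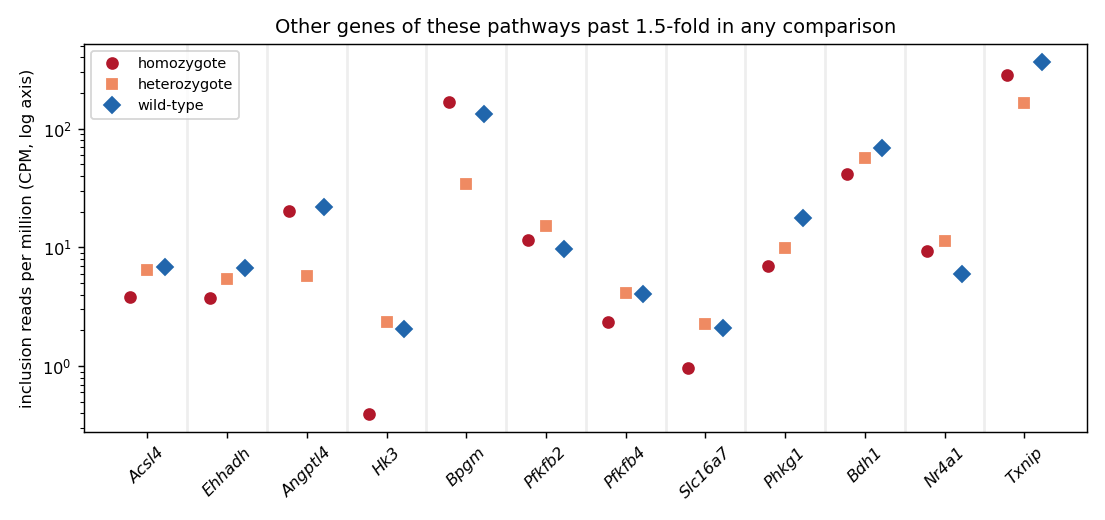
CPM on a log axis of the 12 further pathway genes past 1.5-fold in any comparison, with the homozygote, heterozygote and wild-type library from left to right for each gene. Phkg1 and Bdh1 are lowest in the homozygote, and Angptl4, Bpgm and Txnip are lowest in the heterozygote.

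Bpgm and Hk3 are also made by other tissues whose markers differed between the libraries, and the part of those tissues was not tested. Bpgm, the bisphosphoglycerate mutase that is abundant in red cells, had 166.5 CPM in the homozygote and 34.3 CPM in the heterozygote, against 132.2 CPM in the wild-type, in the order of the globin genes. Hk3, the hexokinase of white cells, had 0.39 CPM in the homozygote and 2.37 CPM in the heterozygote, against 2.04 CPM in the wild-type, and the immune list summed to 45.4, 77.5 and 77.9 CPM.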

How the data were processed

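Hearts of 12-week-old homozygote, heterozygote and wild-type mice were measured by RNA-seq, 1 library each (SMART-seq cDNA of full-length transcripts, Nextera libraries). According to the submitters' notes, the tools were cutadapt 1.1, Trimmomatic 0.32, Bowtie 1.1.1 and TopHat2 2.0.14, with the build GRCm38; the counting program and annotation are not given in the sources used here. The authors deposited raw counts of inclusion and exclusion reads for 469293 exonic parts, and PSI as a fraction, which equals the counts after division by the read positions of a part (length + 129) and of a junction (129). The authors' 2 columns of PSI differences were not used, nor were 3 columns of PSI labelled 36 weeks, which have no sample record.

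Inclusion reads were summed over the parts of a gene and divided by the library total. Parts in rows of overlapping genes (40250) were given to a gene where GENCODE M21 places only its exons there (33411); the rest held 2.18 to 2.31% of reads. Genes with an average of at least 1 CPM were compared as log2(CPM + 1), and parts with at least 20 reads as PSI in percent. Sizes of 1.5-fold and 20 points were the rules. Intervals are exact (conditional binomial for folds, Clopper-Pearson carried to PSI) at 95%, and they cover counting error only, since the reads carry no molecular identifiers. Level per length is the median, over parts of at least 30 bases with PSI of at least 90%, of CPM per 1000 read positions. For Cpt1b it includes shared parts. Whether counting used strand is not stated, and 15 of the 44 genes have parts over an exon of the opposite strand. The members and lists were chosen with earlier results of these data known. Values per library are given for genes past 1.5-fold, the highest of each role per length, those with a part past 20 points and Pkm, Gapdh, Cpt1b, Pdk4, Ppargc1a, Hk1, Hk2, Slc2a1, Slc2a4, Ldha and Ldhb; values of other members and parts were chosen after they were seen. Some genes of the fixed lists are not reported here. The scripts were tested on simulated data. Python 3.11.15, numpy 2.4.6, pandas 2.3.3, scipy 1.17.1 and matplotlib 3.10.9 were used.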

Additional observations from a re-analysis of the deposited data

How the results depend on the processing

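No paired analysis was possible because each genotype has 1 library, and no replicate could be left out. Ucp3 was the gene past 1.5-fold against the wild-type in both mutants under size factors, a pseudocount of 0.1, no minimum, constitutive parts alone, shared parts included and a 2-fold rule. At a log2 size of 0.32 the count was 1 for the homozygote over the wild-type, 3 for the heterozygote over the wild-type (with Pdk4 and Esrrg) and 1 for the homozygote over the heterozygote (Pdk4). At 1.5-fold, the count for the homozygote over the heterozygote went from 0 to 1 with size factors, again by Pdk4. It did the same with totals without globins and Alas2 (an alternative chosen after seeing the data). Without the globins 20 of 44 genes were higher in the homozygote (14 as reported) and 19 in the heterozygote (27 as reported), both against the wild-type. The median log2 ratio of all genes tested was then -0.05 for the homozygote and -0.07 for the heterozygote over the wild-type. Parts past 10 points numbered 24 for the homozygote over the wild-type, 24 for the heterozygote over the wild-type and 8 for the homozygote over the heterozygote. Past 30 points these were 1, 0 and 0, and with at least 50 reads 2, 0 and 2. Without length normalization they were 2, 1 and 2, but only the Esrrg part between homozygote and heterozygote was past 20 points both ways. The Ppara and Hk1 parts no longer passed, and parts of Acacb, Esrrg and Acsl1 did. Shares of all parts past 30 points, with at least 50 reads or without length normalization are not given here. The Pkm differences without it were 1.104 and 1.18 points for M1 in homozygote and heterozygote over the wild-type, and -0.67 and -0.93 points for M2. With 1 library per genotype, differences between mice, between preparations and between genotypes cannot be told apart.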
